A study of Mus musculus with 32 samples.

Results

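The Zic genes examined were Zic1, Zic2, Zic4 and Zic5, 4 of the 48576 genes listed in the deposited expression files of developing mouse brain. They were chosen by Ensembl identifier, with earlier results of these data known. Zic genes code for zinc finger transcription factors related to the Gli factors of the Hedgehog pathway, and they are expressed most strongly in the dorsal neural tube and at its edges. In the mouse, reduced Zic2 function leaves the neural tube open and gives holoprosencephaly, a failure of the forebrain to divide, and loss of Zic5 also leaves the cranial neural tube open. Zic1 and Zic4 are best known from the cerebellum, where deletion of both genes gives a small and poorly folded organ.

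RNA was sequenced from forebrain (Fb) and midbrain (Mb) tissue of E9.5 embryos, and each tissue was covered by 6 libraries of WT, 4 of TKO_Ex, 3 of DKO_Ex and 3 of DKO_CD, 32 libraries altogether. TKO_Ex embryos lacked the type II cadherins Cdh6, Cdh8 and Cdh11 and showed exencephaly, which is an open cranial neural tube. DKO_Ex embryos were double knockouts with exencephaly, for which the labels give Cdh8 and Cdh11, and DKO_CD embryos were double knockouts with a cranial defect, defined in the methods as an elongated Mb without exencephaly, for which the labels give Cdh6 and Cdh8 and the paper Cdh8 and Cdh11. All embryos were of the strain B6C3F1. The mutant alleles were small frameshift deletions of the exon with the start codon, made by CRISPR/Cas9 and all descended from 1 founder, and the mutants came from matings of triple heterozygotes whereas WT embryos came from separate WT matings, so that line and genotype cannot be told apart. For 12 double knockout libraries the heading over the values and the GEO record name opposite double knockout groups, and the headings were followed here. Libraries of a tissue were taken as separate samples of their group as labelled, and p-values measure the spread between these libraries. The estimated depth ran from 1.942 M to 3.237 M fragments per library.

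Several libraries stood apart from their labels or their group, and the values they move most are also given without them. In the WT Mb library of replicate 5 the mean log2(FPKM + 1) of 10 midbrain and isthmus markers was 1.61, whereas the remaining WT Mb libraries lay at 3.44 to 4.69, and that of 12 forebrain markers was 1.48, where the others lay at 0.44 to 1.08. FPKM count fragments relative to exon length and to all mapped fragments of a library, so that levels can be compared between genes. In the library labelled TKO_Ex replicate 3, Cdh6, a deleted gene, stood at 3.10 FPKM in the Mb and 3.74 FPKM in the Fb. The other TKO_Ex libraries held 0.345 to 0.388 FPKM of Cdh6 in the Mb, against 1.04 to 3.55 FPKM in WT, and 0.572, 0.766 and 1.84 FPKM in the Fb, against 2.04 to 4.0 FPKM in WT. In DKO_CD, for which the labels name Cdh6, it measured 1.29 to 2.11 FPKM in the Mb and 1.72 to 3.43 FPKM in the Fb, within or just below WT. Cdh8 measured 1.63 to 2.49 FPKM in the DKO_Ex Mb, 1.0 to 1.47 FPKM in the DKO_CD Mb and 0.851 to 2.32 FPKM in the TKO_Ex Mb, against 1.14 to 10.1 FPKM in the WT Mb. Cdh11 had a median of 18.4 FPKM in the DKO_Ex Mb, 16.3 FPKM in the TKO_Ex Mb, 22.4 FPKM in the DKO_CD Mb and 21.4 FPKM in the WT Mb. Its Fb medians were 17.9 FPKM in DKO_Ex, 20.9 FPKM in TKO_Ex, 22.6 FPKM in DKO_CD and 22.5 FPKM in WT. The small deletions leave most of each transcript in place, so these levels check the labels only in part. High forebrain marker means were also found in the Mb libraries of DKO_Ex replicate 2 (1.64) and DKO_CD replicate 1 (1.51), whose midbrain marker means were 4.53 and 3.46, while the other mutant Mb libraries had forebrain means of 0.47 to 0.92. Six3, a regulator of the anterior Fb, lay between 34.9 and 48.9 FPKM in the WT Fb and at or below 1.36 FPKM in the WT Mb.

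The 4 genes lie in 2 pairs of neighbours on GRCm38. Zic1 (ENSMUSG00000032368) spans chr9:91358058-91365810 on the minus strand and Zic4 (ENSMUSG00000036972) chr9:91362413-91389348 on the plus strand, so that 3398 bases belong to both genes. The libraries were directional, but how fragments from that stretch were split between the genes is not given in the sources used here, and the levels of Zic1 and Zic4 are uncertain to that extent. Zic5 (ENSMUSG00000041703) spans chr14:122456795-122465677 on the minus strand and Zic2 (ENSMUSG00000061524) chr14:122475435-122479852 on the plus strand, with 9757 bases between them. Within each pair the genes are thus read in opposite directions.

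The sequences just before the Zic1 and Zic5 start sites are shown because the members of each pair are read away from or across them. The Zic1 stretch lies within the span of Zic4, and the Zic5 stretch between Zic5 and Zic2. They are from RefSeq on GRCm38.p6, on the minus strand and 5′ to 3′, cut to the bases outside every annotated exon, and capitals mark the matches found. The Zic1 stretch holds 208 bases at chr9:91365811-91366018 and the Zic5 stretch 231 bases at chr14:122465678-122465908.
Zic1: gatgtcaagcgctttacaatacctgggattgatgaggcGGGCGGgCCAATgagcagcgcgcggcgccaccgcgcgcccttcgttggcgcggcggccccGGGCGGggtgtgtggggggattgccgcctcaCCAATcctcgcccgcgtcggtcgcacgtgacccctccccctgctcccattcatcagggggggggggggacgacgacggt
Zic5: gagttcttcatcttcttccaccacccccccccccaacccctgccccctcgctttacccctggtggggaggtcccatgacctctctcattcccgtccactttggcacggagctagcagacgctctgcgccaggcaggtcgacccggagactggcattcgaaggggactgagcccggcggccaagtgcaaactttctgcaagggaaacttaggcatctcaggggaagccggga
The motifs searched on both strands were the CCAAT box (CCAAT), the GC box (GGGCGG), the TATA box (TATAAA), the core of Otx sites (TAATCC), a Zic core (CAGCAGG), the Gli site (GACCACCCA) and a Tcf core (CTTTGAT). The Zic1 stretch holds 2 CCAAT and 2 GGGCGG, which do not overlap, and none of the others. Of 32817 promoter stretches cut to the same length, 29.6% hold CCAAT and 26.2% hold GGGCGG. The Zic5 stretch holds none of the 7. G and C make up 71.2% of the Zic1 stretch and 62.3% of the Zic5 stretch, against a median of 51.9% over all stretches. The matches are a description of these letters only. Zic4 has no base outside exons in its window, and Zic2 was not matched.

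All 4 genes were expressed in every library, and Zic1 led by a wide margin. Over the 32 libraries Zic1 averaged 54.5 ± 11.4 FPKM (SD), Zic2 26.0 ± 8.55 FPKM, Zic5 8.45 ± 2.93 FPKM and Zic4 7.58 ± 2.97 FPKM. Zic1 gave 47.1% to 67.6% of the summed level of the 4 genes, with a mean of 56.9%, and it was the highest of the 4 in each library. In the WT Mb 3.32% of all genes in the files had a higher mean level than Zic1 and 6.09% a higher one than Zic2. The ranks were 1613 and 2957, and only 21054 of the 48576 listed genes had a mean above 0 there. The levels of Zic4 and Zic5 did not separate, with Zic4 at 6.95 ± 2.01 FPKM and Zic5 at 5.70 ± 0.978 FPKM in the WT Fb, while in the WT Mb they stood at 8.62 ± 2.09 and 10.4 ± 3.02 FPKM (SD, n = 6). The estimated fragments behind a value were 403 to 1314 per library for Zic1, 78 to 295 for Zic2, 49 to 176 for Zic5 and 20 to 154 for Zic4 by the longest transcript of each. By all annotated exons they were 54 to 409 for Zic4 and 50 to 180 for Zic5, so that counting error weighs on both.

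**Figure D1:**
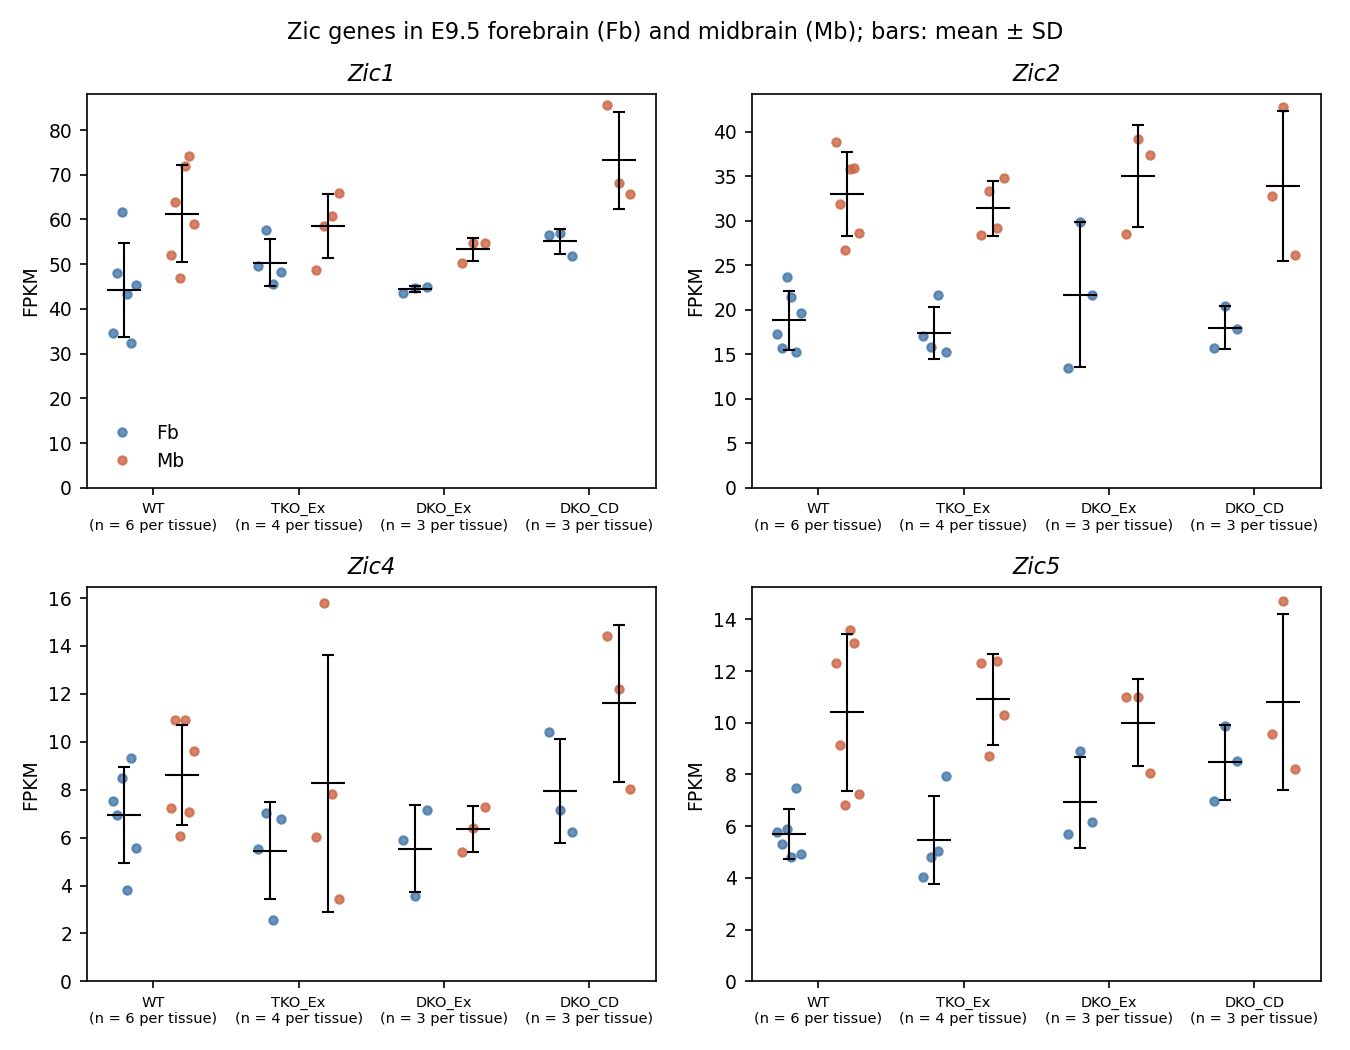
Level of each Zic gene in FPKM (vertical axis, linear from 0) in the Fb (blue) and Mb (red) of the WT, TKO_Ex, DKO_Ex and DKO_CD groups; each point is 1 library, and bars give the mean and SD. The Mb points of Zic2 lie above the Fb points in WT (26.7 to 38.8 against 15.3 to 23.7 FPKM), and each mutant group overlaps WT of its own tissue.

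In WT embryos the Mb held more Zic2 and Zic5 transcript than the Fb. Zic2 ranged from 15.3 to 23.7 FPKM with a median of 18.4 in the 6 Fb libraries, and from 26.7 to 38.8 FPKM with a median of 33.9 in the 6 Mb libraries. Every Mb library was above every Fb library, as for 3.36% of all genes tested. Zic2 thus rose from a mean of 18.8 ± 3.33 to 33.0 ± 4.71 FPKM (SD, n = 6). Its log2 fold change of 0.78 (SE 0.13) passed the threshold (limma across 13344 genes, Benjamini-Hochberg adjusted p = 0.00112). Zic5 ranged from 4.80 to 7.48 FPKM with a median of 5.54 in the Fb and from 6.82 to 13.6 FPKM with a median of 10.7 in the Mb. Here 4 of the 6 Mb libraries were above every Fb library, and the log2 fold change was 0.73 (SE 0.17, limma adjusted p = 0.019). In the same fit 4.66% of genes were higher in the Mb, and 2 of the 4 Zic genes were among them. The median log2 fold change of the 4 was 0.60, against 0.00 over all genes tested. Fold changes here and throughout were taken between values of log2(FPKM + 1), so those of weakly expressed genes come out too small, and the threshold was an adjusted p of 0.05.

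Zic1 and Zic4 did not pass the threshold between the WT tissues. Zic1 ranged from 32.3 to 61.6 FPKM with a median of 44.3 in the Fb and from 47.0 to 74.1 FPKM with a median of 61.3 in the Mb, and 3 Mb libraries lay above all Fb libraries. Its log2 fold change was 0.48 with a 95% interval of 0.14 to 0.81 (limma adjusted p = 0.0863). Zic4 ranged from 3.81 to 9.34 FPKM with a median of 7.25 in the Fb and from 6.07 to 10.9 FPKM with a median of 8.42 in the Mb. The tissues overlapped widely, and the log2 fold change of 0.29 had an interval of -0.13 to 0.71 (limma adjusted p = 0.46). Without the WT libraries of replicate 4 it was 0.09, and without those of replicate 3 it was 0.43. The upper bounds for Zic1 and Zic4 reach or come close to the values of Zic2 and Zic5, and a difference between the genes was not tested.

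Without the WT Mb library of replicate 5, which carried few midbrain markers, Zic2 and Zic5 still passed, with log2 fold changes of 0.76 and 0.66 (limma adjusted p = 0.00355 and 0.045). In that library Zic2 stood at 35.9 FPKM, Zic5 at 13.1 FPKM and Zic1 at 74.1 FPKM, within the range of the other WT Mb libraries or just above it. The call of Zic5 was lost without the WT libraries of replicate 1 (adjusted p = 0.0588), replicate 2 (0.0625) or replicate 4 (0.0893), with log2 fold changes of 0.61 to 0.74. The call of Zic1 appeared without those of replicate 3 (log2 fold change 0.65, adjusted p = 0.0153). Without the WT Mb library of replicate 5 Zic1 stood at 0.42 (limma adjusted p = 0.174), and without the Fb and Mb libraries of replicate 5 at 0.34 (0.281).

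The mean of Zic2 was higher in the Mb than in the Fb of each mutant group, and the difference passed the threshold in TKO_Ex alone. In TKO_Ex embryos Zic2 measured 17.0, 15.8, 21.7 and 15.2 FPKM in the Fb and 28.4, 33.3, 29.2 and 34.8 FPKM in the Mb, and the tissues did not overlap, with the Mb above the Fb throughout as for 4.67% of genes tested. The log2 fold change was 0.83 (SE 0.13, limma adjusted p = 0.0117), in a fit where 1.54% of genes were higher in the Mb. Zic5 measured 4.03, 4.82, 5.05 and 7.94 FPKM in the Fb and 12.3, 8.70, 12.4 and 10.3 FPKM in the Mb of TKO_Ex embryos. Again the tissues did not overlap, but at a log2 fold change of 0.90 the adjusted p was 0.0518 and Zic5 did not pass. The Zic2 call in TKO_Ex was lost without replicate 1, 2 or 4, with log2 fold changes of 0.86, 0.76 and 0.72 (limma adjusted p = 0.0711, 0.131 and 0.0904). Without the library labelled replicate 3, in which Cdh6 was at the WT level, it remained past the threshold, at a log2 fold change of 0.96 (adjusted p = 0.024), while Zic5 stood at 0.82 (adjusted p = 0.285) and Zic4 at 0.12, against 0.42 with all libraries. With the replicate number as a block the Zic2 call in TKO_Ex was lost (adjusted p = 0.0627).

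In the double knockouts no Zic gene passed between tissues. In DKO_Ex embryos, where 1.66% of genes were higher in the Mb, Zic2 measured 13.5, 29.8 and 21.7 FPKM in the Fb and 28.5, 39.2 and 37.4 FPKM in the Mb. A Fb library of 29.8 FPKM thus exceeded a Mb library of 28.5 FPKM, and the log2 fold change of 0.72 had a limma adjusted p of 0.293. In DKO_CD embryos, where 0.224% of genes were higher in the Mb, Zic2 measured 15.7, 20.4 and 17.8 FPKM in the Fb and 32.8, 42.8 and 26.1 FPKM in the Mb. Those tissues did not overlap, as for 7.34% of genes tested with the Mb higher, and the log2 fold change was 0.86 (SE 0.20, adjusted p = 0.172). Zic1 also did not overlap between the tissues of either double knockout, with 43.6, 44.7 and 44.8 FPKM in the Fb and 50.3, 54.7 and 54.8 FPKM in the Mb of DKO_Ex, and 56.5, 57.0 and 51.8 FPKM in the Fb and 85.5, 68.2 and 65.8 FPKM in the Mb of DKO_CD. The Mb was above the Fb in this way for 12.6% of genes tested in DKO_Ex and 7.34% in DKO_CD, so that nothing is read from it for Zic1. Its log2 fold changes were 0.26 and 0.39 (adjusted p = 0.267 and 0.333). Zic5 overlapped between the tissues of both, with log2 fold changes of 0.48 (-0.01 to 0.98, adjusted p = 0.361) in DKO_Ex and 0.29 (-0.27 to 0.86, adjusted p = 0.768) in DKO_CD. Zic4 overlapped too, at 0.20 (-0.38 to 0.79) and 0.48 (-0.14 to 1.11).

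No Zic gene passed the threshold against WT of the same tissue in any mutant group. The 24 tests gave log2 fold changes of -0.36 to 0.50 and limma adjusted p of 0.45 to 0.999, and in each of them the mutant and WT libraries overlapped. Of all genes tested, 1.74% did not overlap with WT in the TKO_Ex Mb, 2.23% in the TKO_Ex Fb, 3% in the DKO_Ex Mb, 3.7% in the DKO_Ex Fb, 3.38% in the DKO_CD Mb and 4.22% in the DKO_CD Fb. An unadjusted p under 0.05 was reached in 1 of the 24 tests, and by 5.46% to 8.66% of all genes tested in the same comparisons. The shares of all genes that passed in either direction were also small. They were 0.0898% in the TKO_Ex Mb, 0.0603% in the TKO_Ex Fb, 0.0903% in the DKO_Ex Mb, 0.0759% in the DKO_Ex Fb, 0.0375% in the DKO_CD Mb and 0.0378% in the DKO_CD Fb, so that a count of 0 among 4 genes is near the background. The 3 mutant groups were compared with the same WT libraries.

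In the TKO_Ex Mb the libraries of Zic1, Zic2 and Zic5 lay inside the WT range and 3 of the 4 of Zic4 outside it. Zic1 measured 48.8, 58.5, 60.7 and 66.0 FPKM and Zic2 28.4, 33.3, 29.2 and 34.8 FPKM. The log2 fold change of Zic2 was -0.06 with a 95% interval of -0.32 to 0.20, and that of Zic1 was -0.06 with an interval of -0.36 to 0.25. Zic5 measured 12.3, 8.70, 12.4 and 10.3 FPKM, with a log2 fold change of 0.10 (-0.35 to 0.55). Zic4 was scattered, at 6.03, 15.8, 7.81 and 3.42 FPKM, and 1 of these lay above and 2 below every WT Mb library. Its interval of -0.89 to 0.50 was the widest of the 4. The TKO_Ex Mb libraries were also the shallower ones, at 1.942 M to 2.323 M fragments against 2.375 M to 2.919 M in the WT Mb, and the part of depth in these values was not tested.

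In the TKO_Ex Fb, Zic1 measured 49.6, 57.7, 45.5 and 48.3 FPKM, inside the WT range, with a log2 fold change of 0.21 (95% interval -0.15 to 0.57). Zic2 had a log2 fold change of -0.10 (-0.42 to 0.22), with 1 library just below the WT range. Zic5 measured 4.03, 4.82, 5.05 and 7.94 FPKM, with 1 library below and 1 above the WT range and a log2 fold change of -0.07 (-0.46 to 0.31). Zic4 measured 5.51, 7.01, 2.56 and 6.77 FPKM, with a log2 fold change of -0.32 (-0.92 to 0.27). Its lowest value came from the library labelled replicate 3, and without it the log2 fold change was -0.06. Without that library the log2 fold change of Zic2 was -0.21 (limma adjusted p = 0.727).

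In the DKO_Ex Mb, Zic2 measured 28.5, 39.2 and 37.4 FPKM and Zic5 11, 11 and 8.05 FPKM. Both genes overlapped with WT, with log2 fold changes of 0.08 (-0.24 to 0.41) and -0.01 (-0.53 to 0.50). Zic1 measured 50.3, 54.7 and 54.8 FPKM and Zic4 5.40, 6.41 and 7.30 FPKM. All lay below the WT median, and 1 Zic4 value below every WT library, with log2 fold changes of -0.18 (-0.50 to 0.14) and -0.36 (-0.80 to 0.07). Without replicate 2, the library with more forebrain marker RNA and with the 39.2 FPKM of Zic2, the log2 fold change of Zic2 was 0.00. In the DKO_Ex Fb the log2 fold changes were 0.04 (-0.36 to 0.43) for Zic1, 0.14 (-0.35 to 0.64) for Zic2, -0.28 (-0.86 to 0.31) for Zic4 and 0.23 (-0.15 to 0.62) for Zic5, and Zic2 spread widely, from 13.5 to 29.8 FPKM. Without the Fb library of replicate 2 they were 0.03, -0.11, -0.04 and 0.06.

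DKO_CD embryos held the highest single values of Zic1, Zic2 and Zic5. In the Mb, Zic1 measured 85.5, 68.2 and 65.8 FPKM and Zic4 14.4, 12.2 and 8.02 FPKM, with log2 fold changes of 0.26 (-0.09 to 0.61) and 0.38 (-0.12 to 0.88). In both genes a part of the libraries exceeded all WT Mb libraries, 1 of 3 for Zic1 and 2 of 3 for Zic4, and neither passed (limma adjusted p = 0.833 and 0.83). The highest values of both came from replicate 1, the library with more forebrain marker RNA, and without it the log2 fold changes were 0.14 and 0.21 (adjusted p = 0.922 and 0.917). Zic2 and Zic5 had log2 fold changes of 0.02 (-0.35 to 0.39) and 0.06 (-0.50 to 0.62) in the DKO_CD Mb. In the Fb, Zic5 measured 6.99, 9.89 and 8.54 FPKM against 4.80 to 7.48 FPKM in WT. Here 2 of 3 libraries were above the WT range, and the log2 fold change of 0.50 (0.15 to 0.85) had an unadjusted p of 0.0103 in the limma fit and an adjusted p of 0.45. It was this test that fell under 0.05 before adjustment. Zic2 in the same libraries measured 15.7, 20.4 and 17.8 FPKM, inside the WT range, with a log2 fold change of -0.05 (-0.39 to 0.29), and Zic1 and Zic4 had log2 fold changes of 0.34 (-0.05 to 0.74) and 0.18 (-0.37 to 0.74). When the double knockout groups were taken from the records and not from the headings, the values of DKO_Ex and DKO_CD changed places, and again 0 of the 4 genes passed in each.

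**Figure D2:**
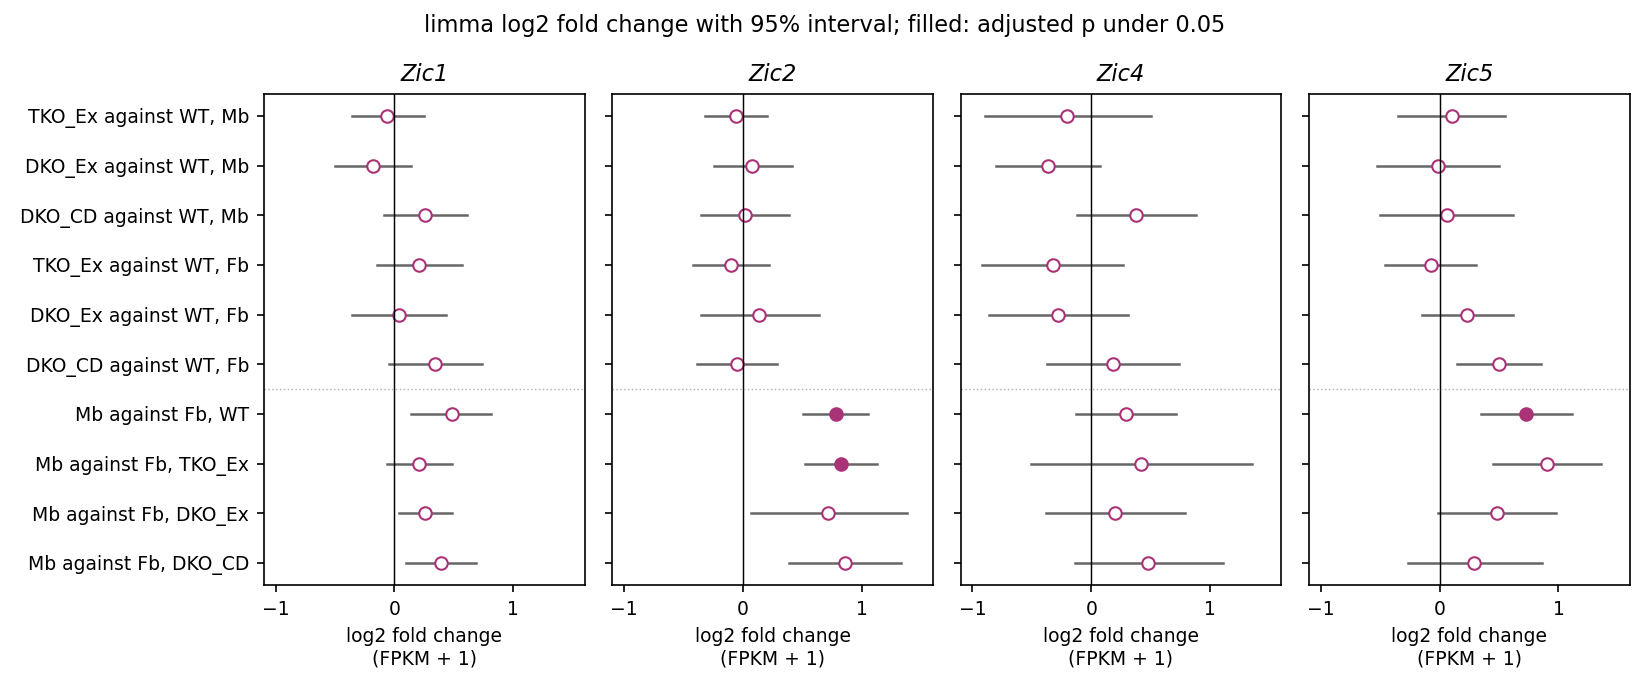
log2 fold change of FPKM + 1 (horizontal axis) of the 4 Zic genes in 10 comparisons (vertical axis); points are limma estimates, lines their 95% intervals, and filled points have an adjusted p under 0.05. Filled points appear for Zic2 between the tissues of WT (0.78) and TKO_Ex (0.83) and for Zic5 between the tissues of WT (0.73), and none appears against WT.

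A difference in mutant effect between Mb and Fb passed for 0 of the 4 genes in each mutant group. The 12 tests of that difference gave log2 values of -0.44 to 0.19 and limma adjusted p of 0.881 to 1.0, and 0 had an unadjusted p under 0.05. The lowest value, -0.44 (95% interval -1.08 to 0.21), belonged to Zic5 in DKO_CD. Without the WT Mb library of replicate 5 the 12 values were -0.37 to 0.24 (adjusted p 0.953 to 1.0). Over all genes, 0.0149% passed in TKO_Ex, 0% in DKO_Ex and 0.00746% in DKO_CD. An unadjusted p under 0.05 was reached by 873 of 13423 genes in TKO_Ex, 518 of 13349 in DKO_Ex and 647 of 13397 in DKO_CD.

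Ordered by their means, the 8 groups fell into a Fb set and a Mb set only for Zic2 and Zic5. For Zic2 the 4 Fb groups were at 17.4 to 21.7 FPKM and the 4 Mb groups at 31.4 to 35.0 FPKM. The step between these sets, from the DKO_Ex Fb to the TKO_Ex Mb, was 9.70 FPKM and exceeded the larger SD of the neighbours (8.18 FPKM), and the other 6 steps were below the larger SD of theirs. For Zic5 the Fb groups ran from 5.46 to 8.47 FPKM and the Mb groups up to 10.9 FPKM without overlap of the means, with each of 7 steps below the larger SD. For Zic4 the tissues were mixed in the order, from 5.46 FPKM in the TKO_Ex Fb to 11.6 FPKM in the DKO_CD Mb, and again the 7 steps were below the larger SD. For Zic1 the order ran from 44.2 FPKM in the WT Fb to 73.2 FPKM in the DKO_CD Mb, and 5 of 7 steps were below it. These orders are descriptions, and neighbouring groups were not tested against each other.

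Ratios and correlations within each neighbouring pair are given as descriptions. The ratio of Zic2 to Zic5 lay between 1.91 and 4.64 with a mean of 3.18 ± 0.777 (SD, n = 32). It was 3.41 ± 0.895 in the WT Fb, 3.31 ± 0.568 in the WT Mb and 2.13 ± 0.0982 in the DKO_CD Fb (SD), the group with Zic5 at 6.99 to 9.89 FPKM. The ratio of Zic1 to Zic4 ranged from 3.46 to 19.3 with a median of 7.63. The 19.3 came from a TKO_Ex Mb library with Zic4 at 3.42 FPKM. Pearson's r of log2(FPKM + 1) over the 32 libraries was 0.74 for Zic2 and Zic5 and 0.44 for Zic1 and Zic4, and with the mean of each tissue subtracted it was 0.32 and 0.30. With the mean of each group subtracted it was 0.37 and 0.17. The points share library depth and dissection, and no test was made.

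**Figure D3:**
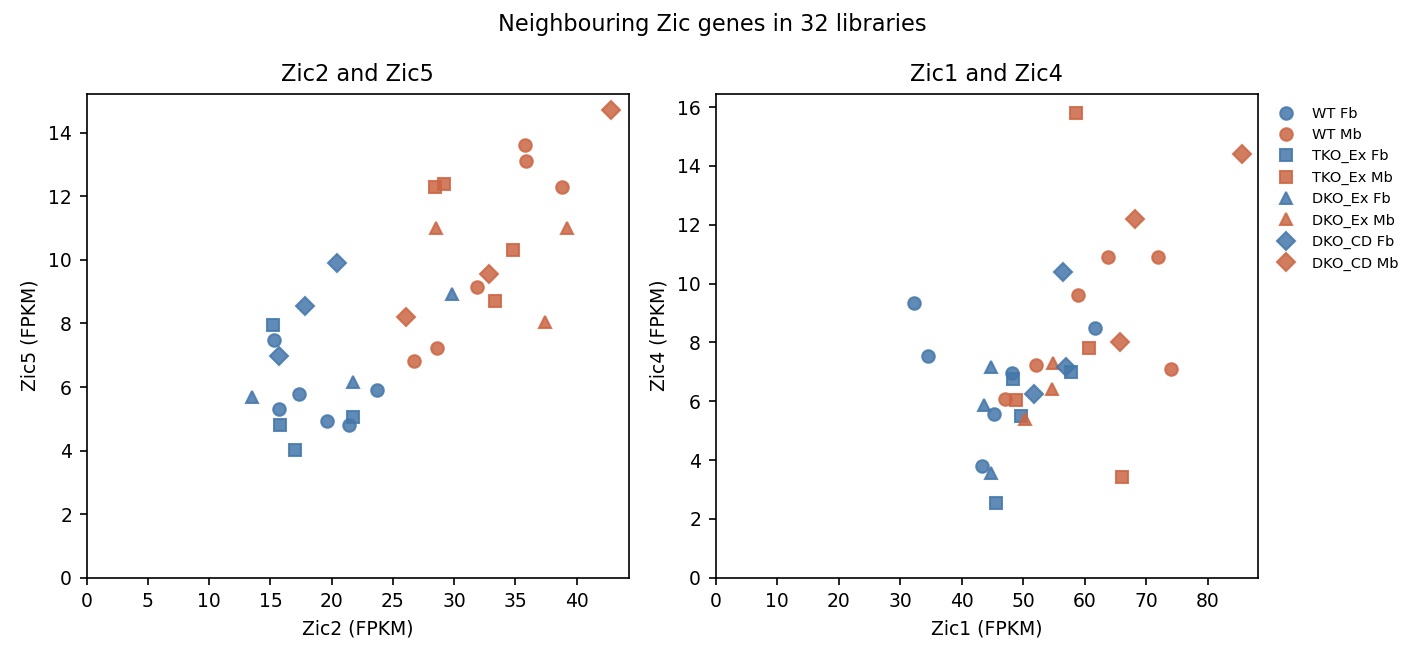
Levels in FPKM of Zic2 (horizontal) and Zic5 (vertical) in the left panel and of Zic1 (horizontal) and Zic4 (vertical) in the right panel; each point is 1 of 32 libraries, blue for Fb and red for Mb, with a symbol for each group. Zic2 and Zic5 form a Fb and a Mb cloud (r = 0.74, and 0.32 once tissue means are subtracted), and for Zic1 and Zic4 r was 0.44 and 0.30.

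Of the 11 other annotated genes within 50 kb of the Zic genes, 2 were expressed at a level that could be tested. 2610035F20Rik, a noncoding transcript 236 bases from Zic2, measured 0.00 to 3.02 FPKM and averaged 1.19 FPKM in the WT Fb and 1.43 FPKM in the WT Mb. Its log2 fold change between the WT tissues was 0.22 (limma adjusted p = 0.722). Gm37477, a transcript model that overlaps Zic4, measured 0.452 to 5.75 FPKM, with a log2 fold change of 0.14 (adjusted p = 0.864). Gm28652, A730094K22Rik, Gm29478, Gm10837 and Gm9399 were listed at 0 in all 32 libraries, Gm37457, Gm37040 and Gm5089 did not exceed 0.399 FPKM, and Gm18143 was not matched to an identifier of the files. Neither of the neighbours that could be tested passed the threshold, with SEs of 0.27 for 2610035F20Rik and 0.32 for Gm37477. As 4.66% of all genes tested were higher in the Mb, nothing is read from this.

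Genes that share pathways with the Zic factors were read in the same WT fit, from lists chosen with earlier results of these data known. Of the Gli and Glis zinc finger factors, which bind related DNA sites, 0 of 5 tested passed in either direction, and the list's median was -0.03. In that fit 8.26% of all genes tested passed, 4.66% higher and 3.6% lower in the Mb, so that 0 of 5 is near the background. Gli3, the main repressor of Hedgehog targets, averaged 20.3 ± 2.92 FPKM in the Fb and 21.1 ± 3.49 FPKM in the Mb (SD, n = 6), and Glis2 and Gli1 had log2 fold changes of -0.03 and -0.16. Of 13 genes tested that have been linked to holoprosencephaly, 2 had higher and 1 had lower levels in the Mb, and the median was 0.01. Boc, a Hedgehog co-receptor, rose from 4.39 ± 0.886 to 11.9 ± 2.69 FPKM (log2 fold change 1.24, adjusted p = 0.000205), and Dll1, a Notch ligand, rose from 10.5 ± 3.47 to 20.8 ± 8.16 FPKM (0.90, adjusted p = 0.0333). Six3, a repressor of Wnt genes in the Fb, fell by 4.80 on the log2 scale, from 39.1 ± 5.51 to 0.491 ± 0.504 FPKM. Shh, the Hedgehog ligand of the ventral midline, was at 13.4 ± 3.01 and 12.9 ± 4.31 FPKM and did not pass.

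Zic genes are dorsal genes, and many dorsal genes were higher in the WT Mb than in the WT Fb. Of 17 roof plate and dorsal tube genes 10 were higher and 3 lower, with a median log2 fold change of 1.03. Over all genes tested 4.66% were higher and 3.6% lower, with a median of 0.00. Wnt1, a signal of the Mb midline and isthmus, rose from 1.29 ± 0.788 to 17.9 ± 4.20 FPKM (3.09, limma adjusted p = 1.57e-06), and Wnt3a, a roof plate signal, rose from 1.23 ± 0.585 to 6.49 ± 2.45 FPKM. Pax3 and Pax7, regulators of the dorsal tube, rose by 1.40 and 0.73 on the log2 scale (adjusted p = 0.000156 and 0.0425). Msx1 (1.03), Msx2 (0.71), Bmp6 (0.88), Gdf7 (1.72), Lmx1b (1.63) and Draxin (1.71) also rose. Bmp4, Bmp7 and Rspo3, all secreted signals, fell by 1.62, 0.56 and 1.37 on the log2 scale. Ventral genes were higher as well, with 6 higher and 1 lower of 10 tested and a median of 0.99. Among them Ntn1, an axon guidance factor, rose from 18.8 ± 3.57 to 53.1 ± 8.41 FPKM, and Foxa2, a floor plate regulator, rose from 4.28 ± 1.51 to 11.6 ± 3.52 FPKM. Nkx6-2 (3.12), Nkx6-1 (1.94), Spon1 (0.84) and Foxa1 (0.83) rose too. An excess in the Mb was therefore not limited to the dorsal list.

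Of all genes tested, 4.66% were higher and 3.6% lower in the WT Mb. Of 25 tested genes whose loss leaves the cranial tube open in mice, 5 were higher and 5 lower there, with a median of 0.07. The genes that rose were Pax3, Celsr1 and Vangl2 of planar cell polarity (1.28 and 0.61), the transcriptional cofactor Cited2 (0.69) and the actin regulator Marcks (0.38). Among those that fell were Alx1, a homeobox gene of frontonasal mesenchyme, by 2.63, Twist1 of the cranial mesenchyme by 1.08, and Grhl2 and Tfap2a of the surface ectoderm by 1.32 and 0.93 on the log2 scale. Zic2 and Zic5, with 0.78 and 0.73, thus changed by less than Celsr1 and by more than Vangl2 on this scale, and the differences between these genes were not tested.

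Markers of several cell types differed between the WT tissues, and fewer cells of a type and less RNA per cell cannot be told apart in bulk samples. Over all genes tested, 4.66% were higher and 3.6% lower in the WT Mb. Of 7 neural progenitor markers 4 were higher in the WT Mb, namely Hes5 (1.87), Pou3f2 (1.75), Vim (0.93) and Nes (0.77), and the list's summed level had a median of 488 FPKM in the Fb and 790 FPKM in the Mb, most of it from Vim. All 6 early neuron markers tested were higher, namely Neurog1 (2.82), Stmn2 (2.51), Elavl4 (1.89), Elavl3 (1.76), Dcx (1.36) and Neurog2 (1.35), with summed levels of 12.7 and 73.7 FPKM. Of 6 surface ectoderm markers 5 were lower, and Epcam fell by 2.05, Cdh1 by 1.5, Grhl2 by 1.32, Krt18 by 1.12 and Krt8 by 1.01 on the log2 scale, with summed levels of 79.8 FPKM in the Fb and 27.1 FPKM in the Mb. Of 7 cranial mesenchyme markers 5 were lower, and Prrx1 fell by 1.70, Col1a2 by 1.2, Twist1 by 1.08, Foxc1 by 0.98 and Pdgfra by 0.71, with summed levels of 216 and 138 FPKM. Of 6 neural crest markers Sox9 and Tfap2a were lower, and of the endothelial and red cell markers none passed. No marker of these cell type and region lists other than Hoxb1, Hoxa3 and Egr2 of the hindbrain and Rax of the forebrain was at 0 in every library of a WT tissue. Zic2 and Zic5 were thus higher in the Mb where progenitor and neuron markers were higher and surface ectoderm and mesenchyme markers lower. The part of these markers in the Zic difference was not tested. The region markers followed the labels, with 11 of 12 forebrain markers lower and 6 of 10 midbrain and isthmus markers higher in the Mb. Of the hindbrain markers 2 could be tested, and Gbx2 was higher (2.01).

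**Figure D4:**
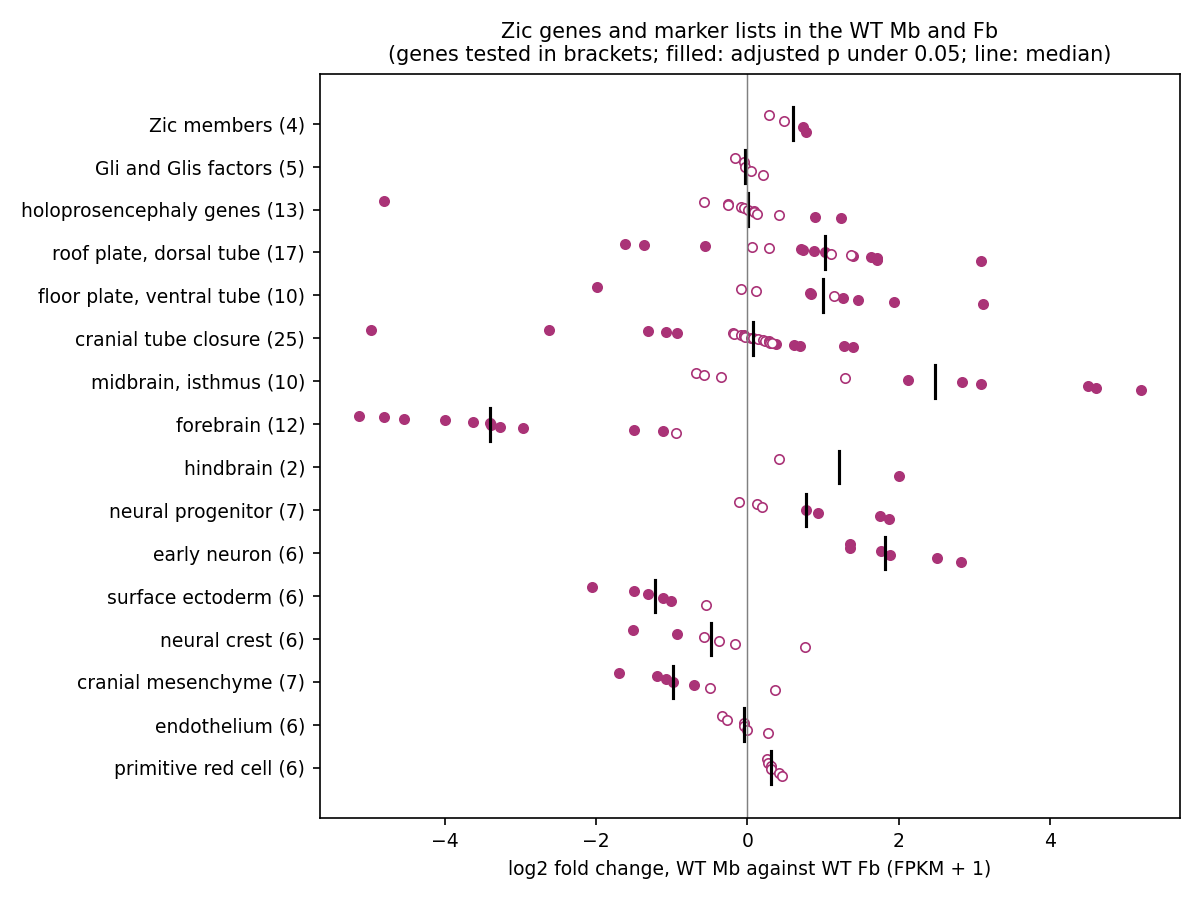
log2 fold change of FPKM + 1 between WT Mb and WT Fb (horizontal axis) for the 4 Zic genes and 15 gene lists (rows, with the number of genes tested); each point is a gene, filled where the limma adjusted p is under 0.05, and the line is the list's median. The Zic genes lie at 0.29 to 0.78, between the medians of the Gli and Glis factors (-0.03) and the dorsal list (1.03), with neuron markers to the right and surface ectoderm and mesenchyme markers to the left.

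Against WT, no gene of these lists passed in the mutants. Of 117 listed genes other than the Zic genes tested in the TKO_Ex Mb, 0 passed (lowest limma adjusted p 0.299, with 12 at an unadjusted p under 0.05), and 0 of 118 did in the Mb of DKO_Ex and of DKO_CD (limma, 7 and 12 at an unadjusted p under 0.05). In the Fb, 0 of 120 passed in each mutant group, with 22, 15 and 14 at an unadjusted p under 0.05 in TKO_Ex, DKO_Ex and DKO_CD. These were 10.3%, 5.93% and 10.2% of the listed genes in the Mb of TKO_Ex, DKO_Ex and DKO_CD, where all genes tested gave 8.38%, 5.46% and 6.69%, and 18.3%, 12.5% and 11.7% in the Fb, where all genes tested gave 8.66%, 7.01% and 8.44%. The listed genes were not tested as a set. The most abundant of the dorsal list (Msx1, Rspo1 and Wnt1), of the holoprosencephaly list (Gas1, Fgfr1 and Tgif1) and of the closure list (Cfl1, Marcksl1 and Marcks) were among the genes that did not pass. The median log2 fold change of the dorsal list in the Mb was -0.08 in TKO_Ex, -0.13 in DKO_Ex and 0.14 in DKO_CD, against 0.02, 0.03 and 0.02 over all genes tested.

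Several cell type lists had medians away from 0, in both directions, in the groups where Zic values ran high or low, although 0 of their genes passed. Over all genes tested against WT the medians were -0.01 to 0.04, and 5.46% to 8.66% of genes had an unadjusted p under 0.05. In the DKO_CD Mb, where Zic1 and Zic4 had their highest group means, 7 tested mesenchyme markers had a median log2 fold change of 0.62, with 5 at an unadjusted p under 0.05, and the summed level of the list, led by Col3a1, was 184 to 278 FPKM against 112 to 207 FPKM in WT. Surface ectoderm markers there had a median of 0.40, with 2 of 5 at an unadjusted p under 0.05, and red cell markers had a median of -0.35 (0 of 6). In the DKO_CD Fb, where Zic5 stood at 0.50, neuron markers had a median of 0.89 (3 of 5) and summed levels of 16.2 to 38.9 FPKM against 7.56 to 19.2 FPKM in WT. Progenitor markers, led by Vim, had a median of 0.32 (3 of 7) in the same libraries, and their summed level of 570 to 595 FPKM lay above the 417 to 544 FPKM of WT. Surface ectoderm markers in these Fb libraries had a median of 0.40 (2 of 8), while mesenchyme markers had a median of -0.25 (1 of 7). In the TKO_Ex Fb, where Zic4 stood at -0.32, surface ectoderm markers had a median of 0.49 (4 of 8), neuron markers of 0.50 (1 of 5) and mesenchyme markers of -0.37 (4 of 7). Mesenchyme markers had a median of -0.39 (4 of 7) in the DKO_Ex Fb. Red cell markers had medians of -0.51 (0 of 6) in the DKO_Ex Fb and -0.68 (1 of 6) in the DKO_Ex Mb. In the TKO_Ex Mb the 7 cell type lists had medians of -0.28 to 0.27. Of the region lists 0 genes passed either in the mutant Mb. The 10 midbrain and isthmus markers, led by Cnpy1, En2 and En1, had medians of 0.77 in TKO_Ex, 0.78 in DKO_Ex and 0.35 in DKO_CD, and without the WT Mb library of replicate 5, a setting chosen after seeing the data, 0.34, 0.36 and -0.09. The forebrain markers that could be tested had medians of -0.44 (4 genes), 0.28 (5 genes) and 0.13 (5 genes), and without that library -0.18, 0.61 and 0.30. The part of these markers in the Zic values was not tested.

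The genes whose levels went most closely with each Zic gene were sought among the 9153 genes that averaged 5 FPKM or more, after subtracting the mean of each tissue, so that the Fb and Mb difference played no part. For Zic1 they were Tmx4 (r = 0.71), Ppp6r3 (0.67), Scube3 (0.66), the noncoding Gm26953 (0.65) and Gli3 (0.63). Gli3 is a Hedgehog effector and Scube3 a secreted protein. For Zic2 they were Fut11 (0.64), Med4 (0.63), Armcx2 (0.61), Gon7 (0.60) and Psme1 (0.60). For Zic4 they were Etfa (0.70), Sec22b (0.60), Rcor3 (0.57), 1700088E04Rik (0.57) and Hprt (0.55). For Zic5 they were Necap1 (0.65), Grcc10 (0.59), Chmp2a (0.57), Tnks2 (0.55) and Tceal9 (0.55). Among the 4 genes the closest were Zic2 and Zic5, with r = 0.32, where Zic5 ranked 521 of 9152 genes by likeness to Zic2, and the lowest was -0.19 for Zic2 and Zic4. With the tissue means left in, the leading genes were Cemip2 for Zic1 (r = 0.76, against 0.58 with them subtracted), Boc and Nkd1 for Zic2 (both 0.88, against 0.44 and 0.41), Rcor3 for Zic4 (0.62, against 0.57) and Id2 for Zic5 (0.81, against 0.52). These correlations are over 32 libraries that share depth and dissection, and no test was made.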

How the data were processed

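The deposited values are FPKM, which the authors obtained with Cufflinks after TopHat2 had placed the reads of directional libraries on GRCm38 (mm10), so that gene length and library size are already divided out. Tool versions and the annotation are not given in the sources used here. The authors' HTSeq counts and DESeq2 tests were not used here. The values of 65 repeated identifiers were summed, and names and places were taken from GENCODE on GRCm38, which held 48218 of 48576 identifiers. No library had values identical to another. Depth was estimated from the steps between low values of 771 long genes with 1 transcript. No column of per-sample values was left unused.

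Linear models were fitted to log2(FPKM + 1) by limma 3.58.1 (R 4.3.3) with its trend option. Genes averaging under 1 FPKM over the libraries of a fit were left out, and the threshold was a Benjamini-Hochberg adjusted p of 0.05. Each mutant group was fitted with WT of its tissue alone. The Mb and Fb of each mutant group were compared in fits added after values were seen. The fits were tested on simulated data with 200 changed genes. Of log2 changes of 1, 62% to 95% were recovered, with 6 to 13 false calls per fit. Changes below 1, the size of those of the Zic genes, were not simulated, so their recovery is not known. Tables were handled with pandas 2.3.3 in Python 3.11.15.

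The members and lists were chosen with earlier results of these data known. The genes named were the members, annotated genes within 50 kb, the 5 genes most like each member, list genes past the threshold in a comparison described or else the 3 most abundant, and Cdh6, Cdh8 and Cdh11. Some genes that this rule would name are not reported here. Shh was added after its values were seen, as were Cemip2, Boc, Nkd1, Rcor3 and Id2 where they are named without the tissue means subtracted. Alternatives were no filter, pseudocounts of 0.1 and 5, median-of-ratios and quantile scaling, no trend, all groups in 1 fit, a replicate block, leaving out each replicate or the WT Mb library of replicate 5, grouping by record, and likeness without tissue means subtracted.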

Additional observations from a re-analysis of the deposited data

Results flagged for a closer look

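Of the 16 groups of 4 or more libraries searched, 4 for each Zic gene, 0 held a library that lay far from the rest of its group by Dixon's test, where chance would mark about 1 group in 20. No Zic gene had a mutant effect that differed between Mb and Fb past the threshold.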

How the results depend on the processing

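Of 864 settings compared over 52 results, 4 for each of 13 comparisons, 795 kept the direction and the side of the threshold, and no mutant effect or difference of effects passed under any of them (lowest limma adjusted p 0.421). The call of Zic2 between the WT tissues held under each. With all groups in 1 fit, Zic1 passed between the WT tissues (0.48, adjusted p = 0.0106), Zic5 between those of TKO_Ex (0.90, adjusted p = 0.00779, making 2 members) and Zic2 between those of DKO_CD (0.86, adjusted p = 0.0205, making 1), where the shared estimate of spread comes from more libraries.

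Same-numbered Fb and Mb libraries deviated together only weakly (r 0.03 to 0.09 in WT, 0.01 to 0.12 in TKO_Ex, 0.08 to 0.12 in DKO_Ex and 0.03 to 0.14 in DKO_CD), and the labels do not say that they are the same embryo. In WT 5 of 6, in TKO_Ex 3 of 4 and in the double knockouts 3 of 3 correlated best with their own number, a hint from the data. With the replicate block, Zic2 between the TKO_Ex tissues did not pass (0.83, limma adjusted p = 0.0627, leaving 0 members). In the fits against WT the block joined mutant and WT libraries of the same number, although these embryos came from separate matings. There 0 mutant libraries correlated best with the WT library of their own number, so that this block stands for no known pairing. Under it 3 uncalled log2 values changed sign, to 0.01 for Zic1 in the TKO_Ex Mb, 0.10 for Zic5 in the DKO_Ex Mb and -0.08 for Zic1 in the DKO_Ex Fb. The block changed no other call.

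Grouping by record changed the sign of uncalled values. In DKO_Ex they became 0.26 for Zic1, 0.38 for Zic4 and 0.06 for Zic5 in the Mb, and -0.05 for Zic2 and 0.18 for Zic4 in the Fb. In DKO_CD they became -0.18, -0.36 and -0.01 in the Mb, and 0.14 and -0.28 in the Fb. The differences of effects became 0.08 for Zic2 and 0.19 for Zic4 in DKO_Ex, and -0.06 and -0.09 in DKO_CD.

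Leaving out 1 replicate at a time changed the sign of 40 uncalled values and moved 8 others across the threshold. The ranges of the log2 values concerned follow. In TKO_Ex against WT in the Mb it moved Zic1 (-0.13 to 0.03) and Zic4 (-0.54 to 0.10). In TKO_Ex against WT in the Fb it moved Zic5 (-0.24 to 0.03). In DKO_Ex against WT in the Mb it moved Zic2 (0.00 to 0.22) and Zic5 (-0.11 to 0.12). In DKO_Ex against WT in the Fb it moved Zic1 (-0.04 to 0.14) and Zic2 (-0.11 to 0.43). In DKO_CD against WT in the Mb it moved Zic2 (-0.15 to 0.19) and Zic5 (-0.16 to 0.22). In DKO_CD against WT in the Fb it moved Zic2 (-0.14 to 0.04) and Zic4 (0.00 to 0.32). In Mb against Fb in WT it moved Zic1 (0.34 to 0.65) and Zic5 (0.61 to 0.84). In Mb against Fb in TKO_Ex it moved Zic2 (0.72 to 0.96) and Zic5 (0.74 to 1.09). In Mb against Fb in DKO_Ex it moved Zic4 (-0.04 to 0.36). In the Mb effect minus the Fb effect in TKO_Ex it moved Zic2 (-0.08 to 0.18) and Zic4 (-0.17 to 0.54). In the Mb effect minus the Fb effect in DKO_Ex it moved Zic2 (-0.21 to 0.11) and Zic4 (-0.33 to 0.12). In the Mb effect minus the Fb effect in DKO_CD it moved Zic1 (-0.25 to 0.06) and Zic2 (-0.05 to 0.24). The members past the threshold were 1 to 3 in WT and 0 to 1 in TKO_Ex between tissues. The cause of these changes was not tested. Over these and the other settings, counts over all genes against WT moved from 12 to between 0 and 52 in the TKO_Ex Mb, from 8 to between 0 and 10 in the TKO_Ex Fb, from 12 to between 1 and 17 in the DKO_Ex Mb, from 10 to between 2 and 14 in the DKO_Ex Fb, from 5 to between 1 and 12 in the DKO_CD Mb and from 5 to between 2 and 15 in the DKO_CD Fb. Between tissues they moved from 389 to between 162 and 663 in TKO_Ex, from 344 to between 48 and 542 in DKO_Ex and from 68 to between 8 and 362 in DKO_CD, and for the differences of effects they ran from 0 to 5 in TKO_Ex, 0 to 1 in DKO_Ex and 0 to 5 in DKO_CD. Between the WT tissues the count went from 1102 to between 742 and 1294. The fewest fragments behind a value were 20 for Zic4 and 49 for Zic5 by the longest transcript, and 54 and 50 by all exons. With the tissue means left in, 1 of the 5 genes most like Zic1, Zic2 and Zic4 was shared with the list above, and 0 for Zic5.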
